A study of Homo sapiens with 16 samples.

Results

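Gene expression in MCF10A cells was compared between 2 neighbouring stretches of a time series, the arrays of 24, 27, 30 and 33 h and those of 12, 15, 18 and 21 h of treatment with CP724,714 at 1 µM. These are 8 of the 16 arrays in the series, and they were taken by the treatment time in the labels. MCF10A is a line of human breast epithelial cells that are not transformed, and CP724,714 inhibits the HER2 kinase. All 8 arrays are from inhibitor-treated cells in a medium that held insulin, EGF, hydrocortisone and triiodothyronine among its supplements, and no time series without inhibitor was analysed here. RNA came from parallel cultures, with 1 array for each time point, so the 4 arrays on a side are successive time points and not replicates of a condition, and p-values measure a difference against the change within a side. Of 20589 rows, 11055 probes for 10488 gene symbols had a detection p under 0.05 on 3 or more of the 8 arrays and were tested, and 9184 of them were detected on all 8. All levels are log2 intensities after background correction and quantile normalization.

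HER2 is a receptor tyrosine kinase that pairs with EGFR and ERBB3, and its signal through the RAS-ERK and PI3K-AKT pathways promotes entry into the cell cycle and glucose use. When AKT activity falls, FOXO transcription factors enter the nucleus and raise genes of growth arrest, fasting metabolism and receptor expression. Cultured epithelial cells also carry a circadian clock, in which CLOCK and BMAL1 activate the PER and CRY genes and PER and CRY proteins repress them in turn, and a change of medium can set its phase.

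The background level of the arrays differed between the sides. The mean of the negative control beads, inferred from the detection p-values, was 188 to 192 intensity units on the 4 arrays of 12-21 h and 174 to 184 on those of 24-33 h, and the sides did not overlap. Probes never detected on any of the 16 arrays had a median intensity of 182 to 187 and 169 to 179 on the same arrays. Between 10325 and 10888 rows were detected on each of the 8 arrays. After background correction, 1 of 8054 probes that were not detected on any of the 8 arrays was called different in a fit without the detection filter. The labels name no chip or hybridization batch, so time from 24 h on and any such batch cannot be told apart. The change falls between 21 and 24 h and lasts to 45 h, so the levels at 0-9 and 36-45 h are given below for genes that differed. The array of 0 h is from cells without inhibitor, so the 0-9 h group mixes it with arrays of treated cells.

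**Figure D1:**
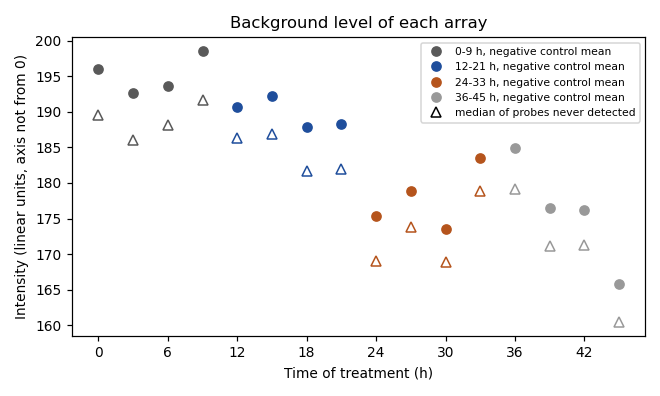
Background level (linear intensity units, axis not from 0) of each of the 16 arrays against treatment time in hours, as the inferred mean of the negative control beads (filled circles) and the median of probes never detected (open triangles). Circles lie between 188 and 199 on the 8 arrays up to 21 h and between 166 and 185 on the 8 arrays from 24 h.

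Few transcripts differed in mean level between 12-21 and 24-33 h. At a limma adjusted p under 0.05, 4 of 11055 probes were higher at 24-33 h (0.0362%) and 7 were lower (0.0633%), while 957 had an unadjusted p under 0.05. With median scaling in place of quantile normalization the split was 13 higher and 4 lower. Only 20 probes were 1.5-fold or more apart in either direction, or 0.181% of those tested, and 4 were 1.7-fold or more apart. Levels of the 4 arrays on 1 side lay wholly above those of the other for 311 probes that were higher at 24-33 h (2.81%) and 279 that were lower (2.52%). The SD of the log2 difference of 2 arrays over the tested probes was 0.222 to 0.304 for the 16 pairs across the sides and 0.206 to 0.289 for the 12 pairs within a side.

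The comparisons on either side of this one gave far more calls in a single limma fit of all 16 arrays in 4 groups of 4. The 0-9 h group of that fit includes the array of 0 h, from cells without inhibitor. In that fit 3495 probes differed between 12-21 and 0-9 h (31.6%) and 4445 between 36-45 and 24-33 h (40.2%), but 3 between 24-33 and 12-21 h (0.0271%). Those 3 were PRKAG1, KLK6 and SERPINA3, and neighbouring comparisons share arrays. From 21 to 24 h, 108 probes moved by 1.7-fold or more, against 90 to 134 for the 3 steps within 12-21 h, 35 to 48 for the 3 within 24-33 h, 845 from 9 to 12 h and 713 from 33 to 36 h.

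The 4 probes that were higher at 24-33 h belong to KRT16, GLRX, AHNAK and S100A4. KRT16, a keratin of stressed and hyperproliferative squamous epithelium, was at 14.66, 14.39, 14.13 and 14.40 on the arrays from 12 to 21 h and at 14.94, 15.10, 14.98 and 15.03 on those from 24 to 33 h. Every array of the later side lay above every array of the earlier side, with means of 14.40 ± 0.22 and 15.01 ± 0.07 (SD, n = 4 time points). The difference of 0.62 ± 0.08 (log2, SE) corresponds to 1.53-fold (limma adjusted p = 0.0048). KRT16 was at a mean of 15.04 at 0-9 h and 14.86 at 36-45 h, so the earlier side was the low one of the 4 groups. KRT16 has near-identical relatives that its probe may also measure.

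GLRX encodes glutaredoxin, which reduces glutathionylated proteins. It was at 9.52, 9.44, 9.63 and 9.77 from 12 to 21 h and at 10.07, 9.99, 10.14 and 10.15 from 24 to 33 h. The sides did not overlap, and the difference was 0.50 ± 0.08 (SE, limma adjusted p = 0.045). A mean of 10.09 at 0-9 h and of 10.97 at 36-45 h places 12-21 h as the lowest group here too.

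S100A4, a calcium-binding protein linked to cell motility, was at 12.54, 12.54, 12.46 and 12.69 and then at 12.99, 12.84, 12.87 and 12.87. It was higher on each later array, by 0.33 ± 0.06 (adjusted p = 0.046), with means of 13.08 at 0-9 h and 12.97 at 36-45 h. AHNAK, a giant scaffold protein of the cell cortex, had 1 called probe with levels of 10.70, 10.62, 10.56 and 10.64 and then of 10.96, 11.05, 10.94 and 11.04, a difference of 0.37 ± 0.06 (adjusted p = 0.045). A second and brighter AHNAK probe also had sides that did not overlap, but its difference of 0.19 ± 0.05 did not pass (adjusted p = 0.35). AHNAK differed from the others in order, with a mean of 10.41 at 0-9 h that was lower than at 12-21 h and a mean of 11.73 at 36-45 h.

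Of the 7 probes that were lower at 24-33 h, the largest difference was that of PRKAG1, which encodes a regulatory gamma subunit of AMP-activated protein kinase, the sensor of cell energy. Its levels were 7.59, 7.44, 7.77 and 7.14 from 12 to 21 h and 5.85, 4.96, 5.18 and 4.96 from 24 to 33 h. The probe was detected on all 4 earlier arrays and on none of the later ones, so PRKAG1 was at least 2.60-fold lower at 24-33 h, with the lowest detected intensity of each later array as the floor. Measured means were 7.49 ± 0.27 and 5.24 ± 0.42 (SD, n = 4, limma adjusted p = 0.00012). It was detected on all 4 arrays of 0-9 h (mean 7.53) and on 2 of the 4 of 36-45 h (mean 6.22), so its lower level began at the array where the background level changed. The part of the arrays in this result was not tested. It was the only row detected on all 8 arrays up to 21 h and on 2 or fewer from 24 h, while 18 rows had the reverse pattern.

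KLK6 and KLK5 encode kallikrein serine proteases of stratified epithelium, which take part in the shedding of surface cells. KLK6 was at 10.96, 10.69, 10.64 and 10.70 from 12 to 21 h and at 9.58, 9.80, 9.97 and 10.18 from 24 to 33 h. All later arrays were below all earlier ones, and the lowest was that of 24 h. The difference was -0.86 ± 0.11 (SE), or 1.82-fold lower (limma adjusted p = 0.0042). KLK5 was at 14.88, 14.81, 14.75 and 14.75 and then at 14.28, 14.53, 14.55 and 14.49, a difference of -0.34 ± 0.06 (adjusted p = 0.046).

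Both kallikreins had their highest group mean at 36-45 h, 11.57 for KLK6 and 15.17 for KLK5. The part of the arrays in these differences was not tested. Because 2 genes of a family were called, the whole family was looked at, a choice made after the values were seen. Of 15 kallikrein genes on the array, 8 were tested with 9 probes, and 8 of the 9 probes were lower at 24-33 h, with a median difference of -0.34. Later levels lay wholly below earlier ones for KLK3, KLK5, KLK6, KLK9 and KLK10, the 2 called genes included, beside 2.52% of all probes tested. KLK10 (-0.34 ± 0.06, adjusted p = 0.052), KLK9 (-0.52 ± 0.10, adjusted p = 0.075) and the dim KLK3 (-0.56 ± 0.12, adjusted p = 0.18) did not pass the test. KLK7 differed by -0.19 and the brighter KLK8 probe by -0.03, with overlapping sides. Kallikreins lie side by side in the genome and are alike in sequence, so a probe may also measure a relative.

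LCN2 and SERPINA3 are secreted proteins of the acute phase, an iron-siderophore carrier and a serine protease inhibitor. LCN2 was at 9.97, 10.08, 9.90 and 9.80 from 12 to 21 h and at 9.27, 9.27, 9.12 and 9.05 from 24 to 33 h. The sides did not overlap, and the difference was -0.76 ± 0.09 (SE, limma adjusted p = 0.0012). It was highest at 0-9 h (mean 10.37) and lowest at 36-45 h (mean 8.68), so that 24-33 h was a stage of a descent across the 4 groups. SERPINA3 was at 13.71, 13.67, 13.76 and 13.56 and then at 12.89, 13.03, 13.07 and 13.21, a difference of -0.63 ± 0.07 (adjusted p = 0.00064). In contrast to LCN2, it was back at a mean of 13.63 at 36-45 h, and its lowest array of all 16 was that of 24 h.

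CALB2 encodes calretinin, a calcium-binding protein, and SULT1E1 the estrogen sulfotransferase. CALB2 was at 8.90, 8.93, 9.23 and 9.01 from 12 to 21 h and at 8.01, 8.28, 8.34 and 8.54 from 24 to 33 h, a difference of -0.72 ± 0.12 (adjusted p = 0.042). SULT1E1 was at 7.72, 7.86, 7.64 and 7.95 and then at 7.22, 7.09, 7.17 and 7.11, a difference of -0.65 ± 0.11 (adjusted p = 0.046). Neither gene had overlapping sides. CALB2 was highest at 12-21 h among the 4 groups, and SULT1E1 was lowest at 24-33 h.

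These 11 calls were not equally firm. With each of the 8 arrays left out in turn, KRT16, KLK6, LCN2, SERPINA3 and PRKAG1 stayed under an adjusted p of 0.05 each time. AHNAK, KLK5 and SULT1E1 were lost in all 8 of these fits, with adjusted p up to 0.23, 0.24 and 0.23. GLRX and S100A4 were kept only without 21 h and CALB2 only without 33 h. With the spread estimated without an intensity trend, 0 probes were called higher and 2 lower, LCN2 and PRKAG1.

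**Figure D2:**
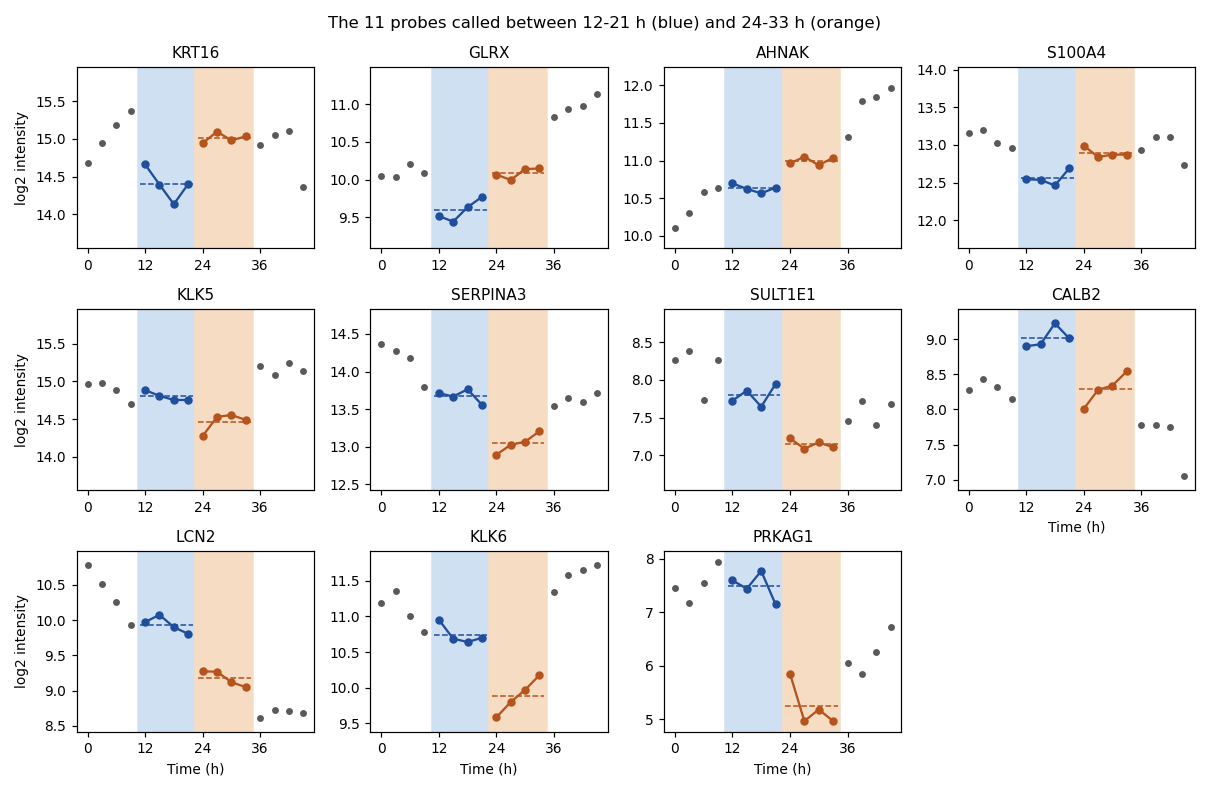
Log2 intensity of the 11 probes that differed between 12-21 h (blue) and 24-33 h (orange), by treatment time in hours. Each point is 1 array, dashed lines are the means of 4 time points, grey points are the other arrays, and each panel has its own level axis. Blue and orange points do not overlap in any panel, and KLK6, KLK5 and SERPINA3 return to higher levels after 36 h.

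The gene lists gave few calls in this comparison. Of 39 lists, 37 had none, the squamous differentiation genes had KRT16 as 1 higher gene of 20 tested, and the chemokines and inflammatory cytokines had LCN2 as 1 lower gene of 18. Median differences were small beside a median of -0.00085 over the 10488 genes tested. The squamous genes had a median of 0.12, with S100A8 (0.25) and KRT16 higher and KLK10 (-0.34) lower on every array of 24-33 h. The mitosis list had a median of -0.11 over 29 genes and the DNA replication list a median of -0.08 over 32, with overlapping sides for every member. With median scaling in place of quantile normalization, which moved the median of all probes to 0.09, these 2 list medians were 0.0030 and 0.02. Sides did not overlap for 3 of 26 proteasome subunits that were higher (PSMA1, PSMA4 and PSMB5, by 0.14 to 0.27, beside 2.81% of all probes tested), for 3 of 22 ribosome biogenesis genes that were lower (DKC1, FBL and RRP1B, by -0.25 to -0.13, beside 2.52% of all probes), and for 3 of 20 genes of serine synthesis and ATF4 targets that were lower (SLC3A2, SLC7A5 and STC2, by -0.22 to -0.09). These 3 lists were picked from the 39 after their values were seen, and none of the 9 genes passed the limma test.

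Of 16 genes the study turns on, 15 were tested and none passed the limma test of the mean difference, with a smallest adjusted p of 0.41. PDK1 was not detected on any of the 8 arrays. EGFR was at 9.63, 9.49, 9.56 and 9.53 and then at 9.66, 9.55, 9.51 and 9.54, a difference of 0.01 ± 0.07 (SE, limma adjusted p = 0.98) for the brightest of the 3 of its 4 probes that were tested. ERBB2, the target of the inhibitor, was detected on 6 of the 8 arrays and lay close to the background, with a difference of 0.08 (adjusted p = 0.90). IRS2, which couples the insulin receptor to PI3K, had means of 10.16 ± 0.27 and 10.19 ± 0.22 (SD, n = 4). SLC2A1, the glucose transporter GLUT1, had means of 8.57 ± 0.10 and 8.59 ± 0.14. The largest differences in this group were those of IGF1R, which was higher on every later array at a low level (0.41 ± 0.13, adjusted p = 0.41), and of ERBB3 (0.32 ± 0.16, adjusted p = 0.61). INSR, IRS1, SLC2A4, PHGDH, VAMP8, ACLY, PDK2, PDK3 and PDK4 differed by -0.11 to 0.30.

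More probes were called for a slope inside the stretches than for a difference between them. A slope with time common to both, with the 2 sets of 4 arrays as a block so that no difference between the sets enters, was called for 94 rising probes (0.850%) and 153 falling probes (1.38%) at a limma adjusted p under 0.05. With 1 array left out at a time the counts ran from 16 to 130 rising and from 70 to 200 falling, and both were lowest without 24 h, the array where the background level changes, and highest without 18 h. Slopes are given as the log2 change over 9 h, from the first to the last array of a set. None of these 247 probes was among the 11 with a mean difference, and all 247 had slopes of the same sign in both sets when these were fitted apart. A common slope is called more readily where both sets run the same way, so this is a description. The test of means keeps the change within a side in its spread, so a probe with a slope is called less readily there. The lack of overlap is thus partly built in. With the slope taken out of the spread, the limma test of means called 9 probes higher and 12 lower. Over the 9184 probes detected on all 8 arrays the 2 slopes had the same sign for 54.0% (r = 0.16 across probes, which are not independent).

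Most probes with a slope turned back between the sets. The median slope of the 153 falling probes was -0.55 over 9 h, while their median difference between the sets, whose centres are 12 h apart, was -0.09. From 21 to 24 h, 152 of the 153 were higher again, by a median of 0.45. The 94 rising probes had a median slope of 0.52 and a median difference of 0.12, and 93 were lower again at 24 h, by a median of -0.37. A jump between the sets at the common slope was called for 55 higher probes (0.498%) and 17 lower probes (0.154%), and 65 of these 72 were also called for the slope, each with a jump against it. Slope and jump are estimated from the same 8 values and move against each other, so the return at 24 h is a description of these probes and not independent evidence. The array of 24 h is also the array where the background level changes, and its part in the return was not tested.

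**Figure D3:**
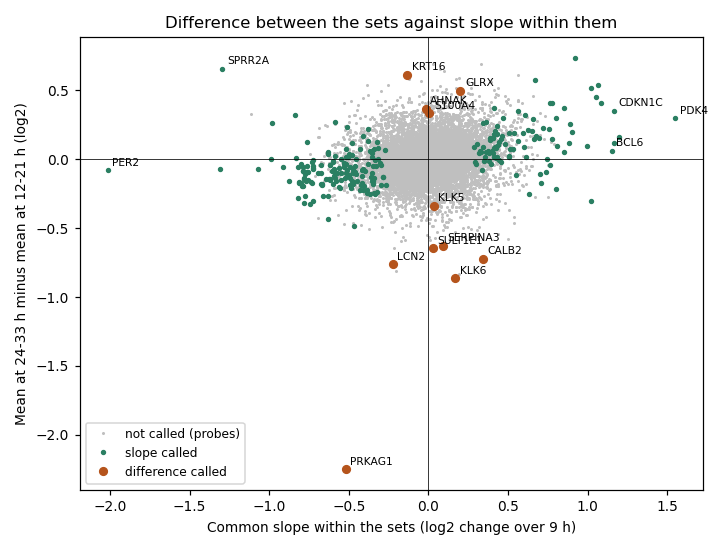
Mean log2 level at 24-33 h minus that at 12-21 h (vertical axis) against the common slope within the sets (horizontal axis, log2 change over 9 h) for 11055 probes, each 1 point. The 247 probes with a called slope (green) lie to the left and right with vertical positions mostly near 0, and the 11 with a called difference (orange) lie above and below with slopes of -0.52 to 0.34, none called.

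Genes of the slope analysis below were named after their values were seen. Over all 10488 genes tested, 1.44% were called falling and 0.877% rising. Slopes were negative in both sets for 2745 of these genes and positive in both for 2859. PER2, a repressor of the circadian clock, had the steepest slope. It was at 9.95, 9.51, 8.81 and 7.88 from 12 to 21 h and at 9.88, 9.41, 8.55 and 7.99 from 24 to 33 h. The level went down at each step of both sets and was higher at 24 h than at 21 h. The common slope was -2.01 ± 0.13 (SE, limma adjusted p = 1.1e-06), with -2.07 in the first set and -1.96 in the second, and it stayed called with each array left out (adjusted p up to 6.9e-05). The means of the sets differed by -0.08 ± 0.40. PER2 had also gone down from 9.61 to 6.27 over 0-9 h, but was between 9.93 and 10.36 on the 4 arrays of 36-45 h.

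Of 14 clock genes tested, 4 fell within the sets and 1 rose, beside 1.44% and 0.877% of all genes tested. The repressors CRY1 (-0.79 ± 0.15, adjusted p = 0.014) and CRY2 (-0.76 ± 0.16, adjusted p = 0.020) and CIART, a further repressor of CLOCK and BMAL1 (-1.07 ± 0.23, adjusted p = 0.023), fell. BMAL1, the activator, rose by 0.76 ± 0.15 (adjusted p = 0.016), with levels of 8.26, 8.57, 8.90 and 8.86 and then of 8.01, 8.58, 8.98 and 8.86. BMAL1 thus ran opposite to PER2 in both sets. The clock output genes DBP (-0.08) and TEF (-0.54) and the activators CLOCK (-0.38) and NPAS2 (-0.01) did not pass. Without the array of 33 h 1 clock gene was still called as falling, and without 21 or 24 h 2 were.

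Mitosis genes fell together. Of 29 tested, 15 fell (51.7%) and 0 rose, beside 1.44% falling and 0.877% rising over all genes tested. Slopes were negative in both sets for 26 of the 29, beside 2745 of all 10488 genes. List medians were -0.52 at 12-21 h and -0.33 at 24-33 h, beside 0.01 and -0.0050 over all genes tested. AURKB, the kinase of the chromosomal passenger complex, was at 12.24, 12.12, 11.89 and 11.71 and then at 12.33, 12.18, 11.80 and 11.31, a slope of -0.79 ± 0.10 (limma adjusted p = 0.00069). KIF23, a kinesin of the cytokinetic bridge, was at 9.97, 9.68, 9.39 and 9.17 and then at 9.80, 9.76, 9.44 and 9.20, a slope of -0.73 ± 0.10 (adjusted p = 0.0013). AURKB was highest at 24 h and lowest at 33 h, and KIF23 was highest at 12 h and lowest at 21 h.

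The spindle motor KIF11 (-0.63 ± 0.11), the DNA topoisomerase TOP2A (-0.57 ± 0.09), the centromere histone CENPA (-0.50 ± 0.08) and UBE2C, which primes mitotic proteins for degradation (-0.73 ± 0.08), fell as well. These 6 genes stayed called with each array left out. AURKA, BUB1B, CCNA2, CENPE, CENPF, HMMR, PRC1, TPX2 and TTK also fell, with slopes of -0.64 to -0.45. Of these, BUB1B, CENPF and TTK were each lost in 6, TPX2 in 5 and HMMR in 4 of the 8 fits. CCNB1 (-0.18), CCNB2 (0.04), CDC20 (-0.10), BIRC5 (0.05) and PTTG1 (0.32), which also act in mitosis, did not pass. The number called went down to 6 without 21 h and to 8 without 33 h, and was 16 without 18 h. At 36-45 h the mitosis genes named with values were lower than at 24-33 h, for example AURKB with a mean of 10.46 against 11.91.

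Of 32 DNA replication genes tested, 3 fell (9.4%), beside 1.44% of all genes tested. They were RRM2, the small subunit of ribonucleotide reductase (-0.72 ± 0.14, adjusted p = 0.014), POLA2 of the primase complex (-0.45 ± 0.08, adjusted p = 0.011) and MCM4 of the replicative helicase (-0.27 ± 0.06, adjusted p = 0.035, lost in 7 of the 8 fits that left out an array). Slopes were negative in both sets for 18 of the 32, beside 2745 of all 10488 genes. Outside that list H2AX, a histone variant that marks DNA breaks, fell (-0.77 ± 0.08, adjusted p = 0.00027). Histone genes did not fall as a group. Of 14 tested, 1 fell and 1 rose, and 7 had negative and 7 positive slopes.

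Promoter sequences are shown for PER2, the steepest gene, and for the 3 steepest falling mitosis genes whose window holds both letters searched for, TTTGAA (the cell cycle homology region of mitotic promoters) and CCAAT. They are RefSeq windows of 300 bases on GRCh38.p14, most of it before the start of the gene, written 5′ to 3′ on its strand, with matches on either strand in capitals. PER2 is searched for CACGTT, a variant of the E-box to which CLOCK and BMAL1 bind, and has 1 match and none to the canonical CACGTG. The windows are chr2:238288561-238288860 (minus strand), chr15:69414099-69414398 (plus), chr10:92592880-92593179 (plus) and chr17:40417847-40418146 (minus), in the order below.
PER2: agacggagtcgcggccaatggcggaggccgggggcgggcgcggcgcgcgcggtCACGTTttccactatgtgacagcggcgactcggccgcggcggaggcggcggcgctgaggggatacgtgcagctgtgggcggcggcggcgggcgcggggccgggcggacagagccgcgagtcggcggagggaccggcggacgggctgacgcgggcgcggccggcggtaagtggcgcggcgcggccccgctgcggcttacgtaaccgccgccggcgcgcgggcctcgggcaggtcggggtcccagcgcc
KIF23: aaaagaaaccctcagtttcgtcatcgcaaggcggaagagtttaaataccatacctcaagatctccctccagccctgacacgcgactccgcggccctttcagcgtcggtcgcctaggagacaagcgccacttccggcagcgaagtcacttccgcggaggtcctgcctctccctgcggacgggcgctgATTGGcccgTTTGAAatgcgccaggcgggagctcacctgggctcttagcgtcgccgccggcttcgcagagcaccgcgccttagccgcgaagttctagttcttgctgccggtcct
KIF11: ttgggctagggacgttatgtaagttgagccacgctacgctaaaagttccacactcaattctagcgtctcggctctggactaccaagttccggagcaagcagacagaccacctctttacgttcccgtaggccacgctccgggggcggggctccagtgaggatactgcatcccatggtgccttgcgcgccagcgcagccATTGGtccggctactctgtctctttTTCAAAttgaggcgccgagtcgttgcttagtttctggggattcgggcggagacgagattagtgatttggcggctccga
TOP2A: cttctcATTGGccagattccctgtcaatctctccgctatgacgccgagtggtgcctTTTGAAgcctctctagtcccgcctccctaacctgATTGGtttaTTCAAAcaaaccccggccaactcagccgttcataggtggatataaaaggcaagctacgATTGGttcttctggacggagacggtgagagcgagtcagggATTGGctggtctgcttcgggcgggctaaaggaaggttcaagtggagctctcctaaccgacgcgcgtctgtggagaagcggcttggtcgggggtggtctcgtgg

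TTTGAA or its complement was in the window of 8 of 11 falling mitosis genes with an entry, of 32 of 110 falling genes of any kind (29.1%), of 6 of 73 rising genes (8.22%), of 9.95% of 7923 tested genes and of 15.4% of all 27305 windows. CCAAT was in 9 of the 11, in 50.9% of the falling genes, in 42.5% of the rising genes and in 37.6% of those tested. CACGTT was in 5.98% and CACGTG in 10.2% of the windows of tested genes, and among the 5 clock genes with a called slope CACGTT was in the windows of PER2 and CRY1 and CACGTG in that of CIART. The counts describe letters in these windows, with no test.

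**Figure D4:**
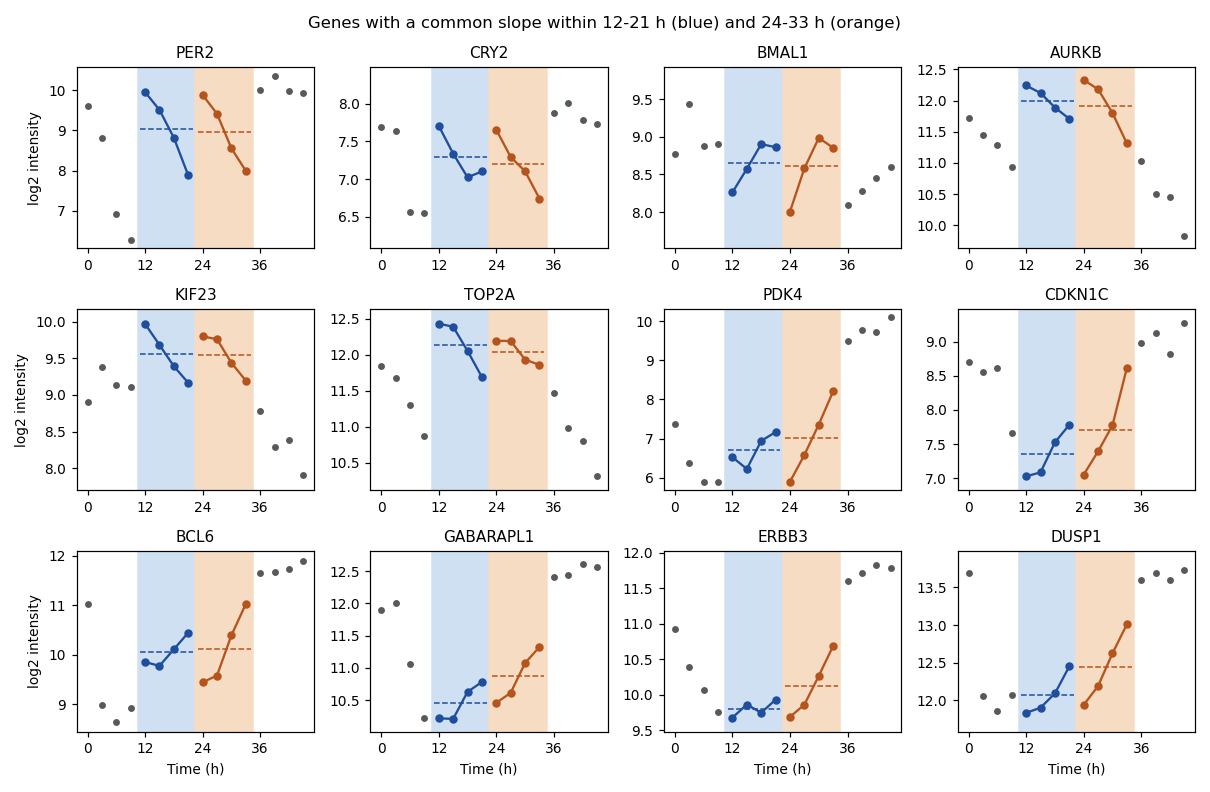
Log2 intensity of 12 genes with a called common slope within 12-21 h (blue) and 24-33 h (orange), by treatment time in hours. Each point is 1 array, dashed lines are the means of 4 time points, grey points are the other arrays, and each panel has its own level axis. PER2, CRY2, AURKB, KIF23 and TOP2A go down in both sets and BMAL1, PDK4, CDKN1C, BCL6, GABARAPL1, ERBB3 and DUSP1 go up over the sets.

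PDK4, the kinase that shuts off pyruvate dehydrogenase and a target of FOXO, was at 6.53, 6.23, 6.94 and 7.17 from 12 to 21 h and at 5.90, 6.59, 7.36 and 8.21 from 24 to 33 h. It had the steepest rising slope of the tested probes, 1.55 ± 0.27 (limma adjusted p = 0.0072), was not detected at 24 h, and reached a mean of 9.77 at 36-45 h. The call was lost in 2 of the 8 fits that left out an array (adjusted p up to 0.094).

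CDKN1C, an inhibitor of cyclin-dependent kinases, was at 7.03, 7.08, 7.52 and 7.78 and then at 7.05, 7.39, 7.77 and 8.61, a slope of 1.17 ± 0.18 (adjusted p = 0.0033). BCL6, a repressor that FOXO factors induce, was at 9.85, 9.77, 10.11 and 10.44 and then at 9.44, 9.58, 10.39 and 11.02, a slope of 1.15 ± 0.18 (adjusted p = 0.0042). In both genes 33 h was the highest of the 8 arrays. Of 19 genes of insulin and FOXO signalling, PDK4 and BCL6 rose and IGFBP6 fell, the last lost in 5 of the 8 fits that left out an array. Over all genes tested, 0.877% rose and 1.44% fell. FBXO32, a ubiquitin ligase of muscle wasting outside that list, had 2 rows that disagreed. The brighter, a single probe, had a slope of -0.98, and the other, a row that joins several probes, had 1.09.

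The autophagy genes GABARAPL1, whose product joins the autophagosome membrane (0.78 ± 0.10, adjusted p = 0.00069), and SQSTM1, a cargo receptor (0.54 ± 0.09, adjusted p = 0.0061), were the 2 of 26 lysosome and autophagy genes that rose, and 0 fell. Over all genes tested, 0.877% rose and 1.44% fell. ERBB3, a partner of HER2 with little kinase activity of its own, was at 9.68, 9.86, 9.75 and 9.93 and then at 9.69, 9.86, 10.26 and 10.69, a slope of 0.61 ± 0.14 (adjusted p = 0.040). Most of its rise was in the later set (1.02 against 0.19), and the test of the difference between the 2 slopes gave an adjusted p of 0.059. A second, dimmer probe had a slope of 0.39 (adjusted p = 0.23). ERBB3 was the 1 gene of 11 ERBB receptors and ligands with a called slope, beside 0.877% rising over all genes tested. The call was lost in 5 of the 8 fits that left out an array.

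Glucocorticoid-induced genes held the largest share of rising members among lists with 10 or more genes tested, 4 of 15 with 0 falling. Over all genes tested, 0.877% rose. The list median was 0.11, and 6 of the 15 had negative slopes, 4 of them in both sets. DUSP1, a phosphatase of MAP kinases, was at 11.83, 11.90, 12.09 and 12.45 and then at 11.94, 12.19, 12.62 and 13.01, a slope of 0.85 ± 0.10 (limma adjusted p = 0.00042). TSC22D3 (GILZ, 0.56 ± 0.13), the transcription factor ZBTB16 (0.62 ± 0.12) and CEBPD, a C/EBP factor (0.38 ± 0.08), also rose. TSC22D3 was lost in 5 and CEBPD in 6 of the 8 fits that left out an array. The levels at 33 h were the highest of the 8 arrays for all 4 rising genes. The number called was 1 without 24 h and 1 without 33 h, and 2 without 15, 27 or 30 h. FKBP5, another glucocorticoid-induced gene, did not pass for a common slope (0.11, limma adjusted p = 0.73). Its slopes of -0.24 at 12-21 h and 0.45 at 24-33 h did differ from each other (adjusted p = 0.028, limma test of the difference between the 2 slopes). The medium held hydrocortisone throughout.

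Of 20 squamous differentiation genes, 4 fell and 0 rose, among them SPRR2A, a cornified envelope protein (-1.29 ± 0.15, adjusted p = 0.00042), SPRR1B (-0.51 ± 0.11, lost in 6 of the 8 fits that left out an array) and the stress keratins KRT6B and KRT6C (-0.38 each, with near-identical sequences). SPRR2A was at 7.94, 7.56, 7.28 and 6.73 and then at 8.86, 8.15, 7.69 and 7.44, so it started the later set higher. Of 20 ERK feedback and immediate-early genes, FOSL1, a FOS family factor (-0.82 ± 0.11), DUSP2 (-0.78 ± 0.17) and PHLDA1 (-0.37 ± 0.08) fell, and DUSP1 and JUND rose. DUSP2 and PHLDA1 were each lost in 5 of those 8 fits and JUND in 4. Over all genes tested, 1.44% fell and 0.877% rose.

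Counts in this paragraph stand beside 1.44% falling and 0.877% rising over all genes tested. Of 12 proteases and inhibitors, MMP7, a matrix metalloproteinase (-0.80 ± 0.11), and SERPINE2 (-0.34 ± 0.07) fell. Of 17 genes of fatty acid synthesis, SCD, the stearoyl-CoA desaturase (0.46 ± 0.08), and ACSL1 (0.41 ± 0.09) rose. ACSL1 was lost in 4 of the 8 fits that left out an array (limma adjusted p up to 0.20). Among 25 genes of sterol synthesis and uptake MVD rose (0.55 ± 0.13, lost in 5 of the 8 fits). Slopes were positive in both sets for 17 of the 25, beside 2859 of all 10488 genes. ASNS, asparagine synthetase (0.43 ± 0.09), and TRIB3 (0.43 ± 0.08) rose among 20 genes of serine synthesis and ATF4 targets. ASNS was lost in 4 of the 8 fits (limma adjusted p up to 0.19). No called slope was found in 13 of the 39 lists, among them ribosomal proteins (30 genes tested), respiratory chain subunits (29) and proteasome subunits (26).

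**Figure D5:**
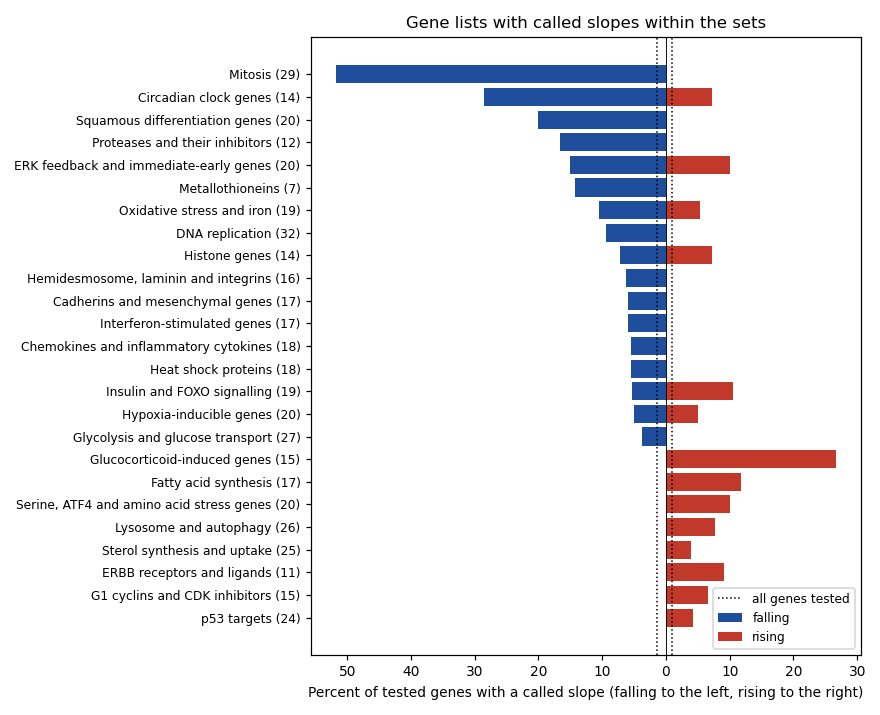
Percent of tested genes in each list with a called slope within the sets, falling to the left and rising to the right. The number of genes tested is in brackets, dotted lines mark all genes tested (1.44% falling and 0.877% rising), cell type marker lists and lists with no call are left out, and the longest bar is mitosis with 51.7% falling.

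The slopes of the sets also differed from each other for some genes. The slope was greater at 24-33 h for 61 probes (0.552%) and smaller for 4 (0.0362%) at a limma adjusted p under 0.05, a test added after the data were seen. In 55 probes the slope was negative at 12-21 h and positive at 24-33 h. ELF3, an epithelial ETS factor, was at 9.19, 9.23, 9.32 and 9.47 and then at 8.16, 8.62, 9.38 and 9.86, so the later set started lower and ended higher (slopes of 0.28 and 1.76). TXNIP, an inhibitor of thioredoxin and of glucose uptake, was at 12.32, 12.24, 12.16 and 12.32 and then at 11.84, 12.37, 12.64 and 13.24 (slopes of -0.02 and 1.34).

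Markers of mammary epithelium had summed linear intensities of 1.57e+05 to 1.71e+05 at 12-21 h and 1.62e+05 to 1.68e+05 at 24-33 h, and 13 of 16 genes were detected on 3 or more of the 8 arrays, KRT5, KRT7, KRT8, KRT17, KRT18 and KRT19 among them. These are bulk samples, so fewer cells of a type and less RNA per cell cannot be told apart. Summed linear intensities were 1111 to 1189 at 12-21 h and 963 to 1085 at 24-33 h for 10 fibroblast markers, of which 8 were never detected and DCN and FAP were. The leukocyte list had CD14 and CD68 as 2 of 10 genes detected and the endothelial list KDR and PECAM1 as 2 of 8. Within the sets KRT17 (-0.59 ± 0.14) and SFN (-0.35 ± 0.08) fell and EPCAM (0.41 ± 0.08) rose among the 13 epithelial markers tested. Over all genes tested, 1.44% fell and 0.877% rose. KRT17 was lost in 5 and SFN in 6 of the 8 fits that left out an array.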

How the data were processed

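RNA of parallel MCF10A cultures was hybridized by the authors to Illumina human Ref8v2 arrays. The authors deposited non-normalized bead summary intensity values on a linear scale, without background subtraction, and a detection p-value for each probe and array. From these, the mean and SD of the negative controls of each array were inferred, since detection p-values of 19092 single-probe rows lie on steps of 1 in 708 (tolerance 0.001). Intensities were corrected by normexp with an offset of 16, quantile normalized over all 16 arrays and taken to log2. Probes with a detection p under 0.05 on 3 or more of the 8 arrays were tested with limma 3.58.1 in R 4.3.3 with an intensity trend (lmFit, eBayes), and called at a Benjamini-Hochberg adjusted p under 0.05 over all probes tested. Common slopes and jumps came from a fit with set and time, the slope as its time term and the jump as its set term.

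Fold changes of probes undetected on a whole side are bounds. Precision is limited by the number of arrays, 4 a side. Members and gene lists were chosen with earlier results of these data known, and the slope genes and kallikreins after their values were seen. The rule for named genes took up to 12 called probes in each direction with sides that do not overlap, the brightest probe of a gene, and the genes the study names. The called AHNAK probe is outside it, since another is brighter, and is named because calls were few. The tested rows held 10501 symbols as the file writes them, of which 7727 were current in the RefSeq table, 1998 were synonyms and 776 were unmatched and kept, and 10488 after synonyms were updated. Of the probes called in the comparison, 1 (KLK6) is a row that joins several probes, and of those called for a slope 6 are such rows. Scripts were tested on simulated data. Alternatives changed the background correction, offset, normalization, detection filter, spread, threshold and arrays used.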

Additional observations from a re-analysis of the deposited data

Results flagged for a closer look

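In a group of 4 arrays, a lowest or highest value was called far from the others where its gap to the nearest exceeded Dixon's critical share of the range, which chance gives in about 5% of groups. This was so for 7 of 268 groups. IGF1R at 21 h (6.04, others 6.36 to 6.40) had a ratio of 0.882. BUB1B at 21 h (9.76, others 10.19 to 10.26) had 0.859 and TPX2 at 21 h (10.86, others 11.37 to 11.47) had 0.841. CCNA2 at 33 h (11.31, others 11.63 to 11.69) had 0.840 and HMMR at 33 h (10.63, others 10.88 to 10.93) had 0.836. These 4 mitosis genes were low on the last array of a set, in the direction of their slopes. KLK8 at 18 h (10.59, others 10.90 to 10.94) had 0.895, and RRP1B at 12 h (8.84, others 8.51 to 8.53) had 0.915.

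The slope differed between the sets for 6 of 134 probes that were checked, by the limma interaction test. These were the called probes, the study genes, chosen genes with a called slope and some further genes. They are not the same as the genes named in the report. FKBP5, named above but outside the 134, also differed (0.69, limma adjusted p = 0.028). Many of the 134 were chosen after their values were seen, and TXNIP and ELF3 are described above for this same difference. The count is therefore a description. Over all 11055 probes the slope was greater at 24-33 h for 0.552% and smaller for 0.0362%, and p-values are adjusted over all of them. Values are the slope at 24-33 h less that at 12-21 h. TXNIP differed by 1.36, from -0.02 to 1.34 (adjusted p = 0.0013). ELF3 differed by 1.48, from 0.28 to 1.76 (adjusted p = 0.015). TSC22D3 differed by 0.89, from 0.12 to 1.01, KRT17 by 0.85, from -1.02 to -0.16 (adjusted p = 0.026), KLK7 by 0.87, from -0.26 to 0.61 (adjusted p = 0.035), and KLK6 by 0.83, from -0.25 to 0.59 (adjusted p = 0.042). KLK6 had its lowest level of the 8 arrays at 24 h and a mean of 11.57 at 36-45 h.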

How the results depend on the processing

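The comparison of means called 4 probes higher and 7 lower. It called 13 and 4 with median scaling, 0 and 3 in the fit of 16 arrays in 4 groups (543 at an unadjusted p under 0.05), 0 and 2 without the intensity trend, 1 and 4 at an adjusted p under 0.01, and 0 and 4 without 21 and 24 h together, all by limma. Leaving out 1 array at a time gave 1 to 3 higher and 4 to 6 lower. A slope in place of the difference gave 94 and 153, a jump at the same slope 55 and 17. Among alternatives chosen after the data were seen, taking the slope out of the residual gave 9 and 12, and place in the set as a block (12 with 24 h, and so on) gave 9 and 8. For the slope, median scaling gave 56 rising, and leaving out 1 array gave 16 (without 24 h) to 130 (without 18 h) rising and 70 (without 24 h) to 200 (without 18 h) falling. The other alternatives left these counts within 1.5 times. The slope had the opposite sign to the difference for AHNAK (-0.017), CALB2 (0.34), KLK5 (0.033), KLK6 (0.17), KRT16 (-0.13), SERPINA3 (0.091) and SULT1E1 (0.027), because it measures change within the sets. The causes of the other changes were not tested. The labels number every array as a single replicate and so pair no arrays. Signal near background limits PRKAG1, ERBB2, SLC2A4, IGF1R and PDK4.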
